A study of Mus musculus with 15 samples.

Results

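The control cells were NIH3T3 fibroblasts in the folded, unstressed state, and their 5 mRNA-seq libraries were chosen by their titles and by labels giving no stress and time 0. They made up 5 of the 15 libraries of the series. NIH3T3 is an established line derived from mouse embryos. All 15 cultures stably carried DD-sfGFP, a superfolder GFP joined to a destabilizing domain (DD) engineered from the human FKBP12 protein, which stays folded only while the ligand Shield-1 (S1) is bound. The control cells were kept in S1, and the remaining libraries were collected 45 min (3 libraries), 135 min (3) or 405 min (4) after S1 was taken away by adding purified FKBP protein. Untransfected NIH3T3 cells were not analysed here, so the controls describe cells that already carry a large amount of the folded fusion protein. The line was a sorted pool of high GFP cells. No source states whether the 5 libraries came from separate cultures, so the spread between them may be technical.

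Fibroblasts make and remodel the collagen-rich matrix of connective tissue and hold a dense actin and vimentin cytoskeleton. Their proteins are folded with the help of chaperones, of which HSP70 and HSP90 are the main cytosolic ATP-driven families and the chaperonin is a barrel that encloses actin and tubulin chains. Proteins that fail to fold are tagged with ubiquitin and destroyed by the proteasome, a barrel called the 20S core with a regulatory 19S cap, or are delivered to lysosomes by autophagy. An unfolded DD is removed by the first of these routes.

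Each library was a table of 20207 RefSeq genes with an estimated read count and an RPKM value, which is reads per kilobase of transcript, scaled to the size of the library. The counts summed to 14207930, 18746456, 6652539, 15568788 and 18494423 in controls 1 to 5. Summed over all genes, RPKM reached 159763 in control 3 and lay between 261684 and 301654 in the other 4 controls. Most values of control 3 are therefore lower, though not all and not by the same factor. Library composition also followed the GC content of the transcripts. Against the mean of controls 1, 4 and 5, and after scaling every library to the same sum, genes above 58% GC lay 1.38 higher in control 2 and 0.71 lower in control 3 on the log2 scale. Genes at or below 42% GC lay 0.49 lower in control 2 and 0.12 higher in control 3. Controls 1, 4 and 5 stayed within 0.15 of their own mean in every GC bin. The leading genes below are therefore given in each of the 5 libraries, and other genes and the lists by their median or mean over the 5.

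**Figure D1:**
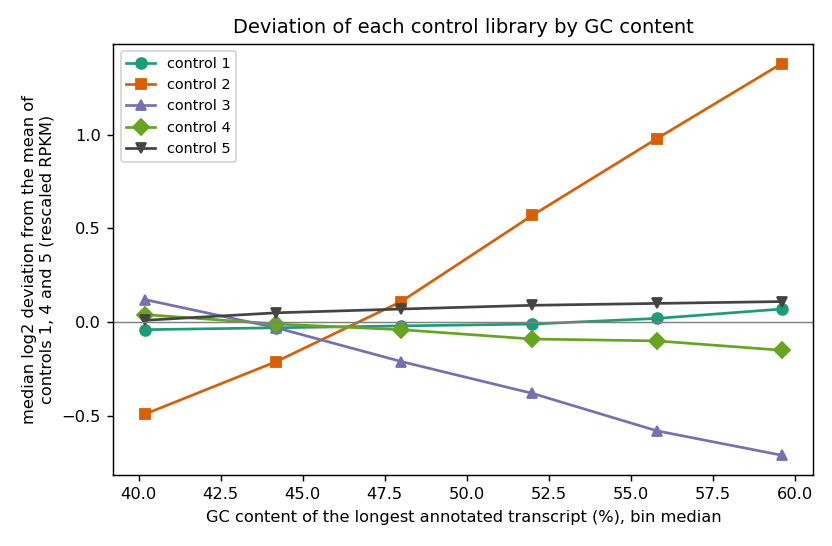
Median log2 deviation of each control library from the mean of controls 1, 4 and 5 (vertical axis, RPKM rescaled to equal library sums) against the GC content of the transcript (horizontal axis, 6 bins, 8298 genes with a mean count of at least 100). Control 2 climbs from -0.49 to 1.38, control 3 descends from 0.12 to -0.71, and the other 3 libraries stay within 0.15 of 0.

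Control cells held a modest set of clearly expressed genes. At 1 RPKM or more in every control there were 6817 genes (33.7% of the table), of which 1913 reached 10 RPKM and 211 reached 100 RPKM in all 5 libraries. A further 7725 genes had at least 1 count but stayed below 1 RPKM in every control, and 2593 genes (12.8%) had 0 counts in all 5. The mean passed 1000 RPKM for 35 genes. Control 3 decided the lower count of expressed genes, because 1382 genes were at 1 RPKM or more in the other 4 controls and not in control 3, and 8199 genes passed without that library.

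Genes of protein synthesis led the transcriptome. Ribosomal protein genes filled 12 of the 20 places with the highest mean RPKM and 55 of the first 100, and the 83 ribosomal protein genes together held between 22.0% and 25.7% of summed RPKM per library. The 20 highest genes held 14.1% of summed RPKM in control 2 and 16.2% to 16.7% in the other controls. Rpl41, on chr10:127985166-127986224 (mm9), encodes a very short protein of the large ribosomal subunit. Its level was 3608, 2853, 1491, 3804 and 3538 RPKM in controls 1 to 5, with a mean of 3059 ± 947 (SD, n = 5). Rps12, of the small subunit, followed at 3503, 2175, 1849, 3699 and 3650 RPKM, or 2975 ± 890 (SD, n = 5). These neighbours differed by far less than their spread, so their order is not resolved. Eef1a1, the factor that brings aminoacyl-tRNA to the ribosome, had 2311, 3079, 1019, 2225 and 3640 RPKM. The highest genes outside translation were S100a6, a calcium-binding protein, at 2917, 2135, 831, 2525 and 4296 RPKM, and Ppia, the proline isomerase cyclophilin A, at 1803, 2636, 651, 1817 and 2873 RPKM. Fth1, the ferritin heavy chain that stores iron, averaged 1952 ± 561 RPKM (SD, n = 5). Ptma and Npm1, acidic nuclear proteins, averaged 1802 ± 303 and 1627 ± 374 RPKM (SD, n = 5). Controls 1, 4 and 5 lay close together for most of the 20 genes while control 3 was the lowest library for 14 of them.

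**Figure D2:**
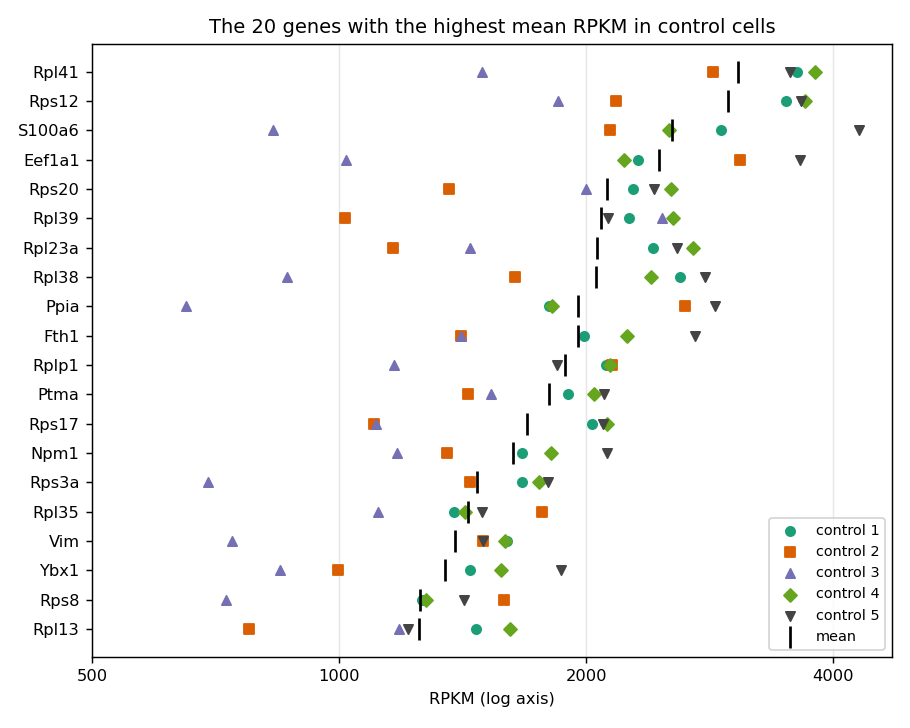
RPKM (horizontal axis, log scale) of the 20 genes with the highest mean over the controls, with 1 point per library and a bar at the mean. Rpl41 leads with a mean of 3059 RPKM and Rpl13 closes the list at 1251 RPKM, and the triangles of control 3 stand to the left for most genes.

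The ranking was stable against the scale but less so against the library. Rescaling every library to the same summed RPKM kept 19 of the 20 genes, and 17 of them were also among the 20 highest by mean RPKM in the 10 later libraries. Only 27 genes were among the 50 highest in every control. Several abundant mRNAs have near-identical copies in the genome, ribosomal protein genes above all, and reads of such genes can be divided between copies. Eno1 and Tpt1 were singled out after their values were seen. Eno1, which encodes the glycolytic enzyme enolase, was listed at 0.0188, 11.4, 0, 0.0176 and 0.137 RPKM. Tpt1, a translationally controlled protein known to be abundant in growing cells, was listed at 40.7, 4.01, 48.6, 30.4 and 22.4 RPKM. Gm5506, an enolase copy, was listed at 1.76, 3.94, 0.874, 1.66 and 1.77 RPKM. Whether reads were divided between copies was not tested, and levels of genes with near-identical copies are uncertain.

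The identity of the cells was checked against 80 fibroblast genes in 5 lists. Of these, 71 were at 1 RPKM or more in every control, and their median of 28.8 RPKM was 3.04 times the median of 9.46 RPKM over the 6817 expressed genes. Lists were not chosen independently of these data, and the comparison describes levels only. Vim, the intermediate filament vimentin that marks mesenchymal cells, stood at 1600, 1496, 739, 1593 and 1495 RPKM (chr2:13495938-13504453). It was level in 4 libraries and low in control 3. S100a4, also called fibroblast-specific protein, had 1274, 1564, 498, 1216 and 1531 RPKM. Itgb1, the beta chain of the collagen and fibronectin receptors, had 167, 149, 64.5, 158 and 164 RPKM. The receptor genes Pdgfra and Pdgfrb had medians of 20.2 and 9.24 RPKM, and the surface markers Thy1 and Cd44 had 35.1 and 30.2 RPKM.

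Matrix genes were expressed at high but uneven levels, with 20 of 22 matrix proteins at 1 RPKM or more in every control. Col1a1 had 235, 376, 158, 245 and 249 RPKM and Col1a2 had 234, 299, 124, 248 and 275 RPKM. These 2 chains assemble into type I collagen, and their ratio was 1.08 ± 0.168 (SD, n = 5), between 0.905 and 1.27. Bgn, the small proteoglycan biglycan, was the highest of the list by median with 288, 658, 102, 263 and 398 RPKM. Sparc, a collagen-binding matrix protein, and Fn1, fibronectin, had medians of 207 and 201 RPKM. Among genes that process matrix, Lox, the enzyme that crosslinks collagen, had 159, 203, 64.6, 173 and 208 RPKM, and Serpinh1, the collagen chaperone HSP47, had 168, 204, 79.9, 162 and 173 RPKM. Loxl2 was at the bottom of that list with a median of 1.99 RPKM. In the matrix list Lum, the proteoglycan lumican, and Eln, elastin, had medians of 0.226 and 0.00712 RPKM.

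Cytoskeletal genes formed the most abundant of the 5 lists, with a median of 149 RPKM. The actin monomer-binding peptides Tmsb10 and Tmsb4x had medians of 864 and 536 RPKM. Actg1, gamma actin, had 740, 742, 412, 807 and 1078 RPKM. Actb, beta actin, had 486, 1557, 104, 440 and 715 RPKM, and was thus at 2.10 times Actg1 in control 2 and at 0.253 times Actg1 in control 3. Acta2, the smooth muscle actin of activated fibroblasts, had a median of 145 RPKM. Cnn1, the smooth muscle calponin, was near absence at a median of 0.0216 RPKM.

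All 12 mesenchymal transcription factors were at 1 RPKM or more in every control, with a median of 10.8 RPKM. Prrx1, a homeodomain factor of limb and connective tissue mesenchyme, was the highest at 97.0, 61, 97.3, 103 and 105 RPKM. Control 2 was the low library here, and the other 4 lay within 97.0 to 105 RPKM although control 3 was among them. Twist2 and Snai2, which repress epithelial genes, had medians of 24.8 and 20.1 RPKM, and Runx1 was the lowest at 3.99 RPKM. A few textbook markers were missing: Nt5e, the surface enzyme CD73, had counts only in control 2, Eng, endoglin, had a median of 0.0266 RPKM, and Fap, the fibroblast activation protein, had a median of 0.169 RPKM.

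Markers of other cell types were close to absent. Of 61 such genes in the table, 2 reached 1 RPKM in every control and 1 more, the meiotic gene Sycp3, reached it in some. The summed RPKM of all 61 ranged from 21.4 to 34 per library, and 9 had no count in any control. Sox9, a cartilage factor that other mesenchymal cells also express, had 20.3, 27.3, 9.97, 14.2 and 19.6 RPKM, whereas the cartilage matrix genes Col2a1 and Acan were at 0 in all 5. Fabp4, a fatty acid carrier of fat cells and macrophages, had 7.57, 3.03, 7.15, 6.58 and 3.36 RPKM, whereas the fat cell genes Adipoq and Plin were at 0 and at a median of 0 RPKM. Epithelial Cdh1 and Epcam had medians of 0.00612 and 0.0259 RPKM, endothelial Pecam1 had 0.0186 RPKM, and the blood cell gene Ptprc and the astrocyte gene Gfap had medians of 0. A count of 0 over all 5 libraries allows a level of up to 0.0407 CPM (counts scaled to library size), which is 3 counts of their total, for counting error only.

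**Figure D3:**
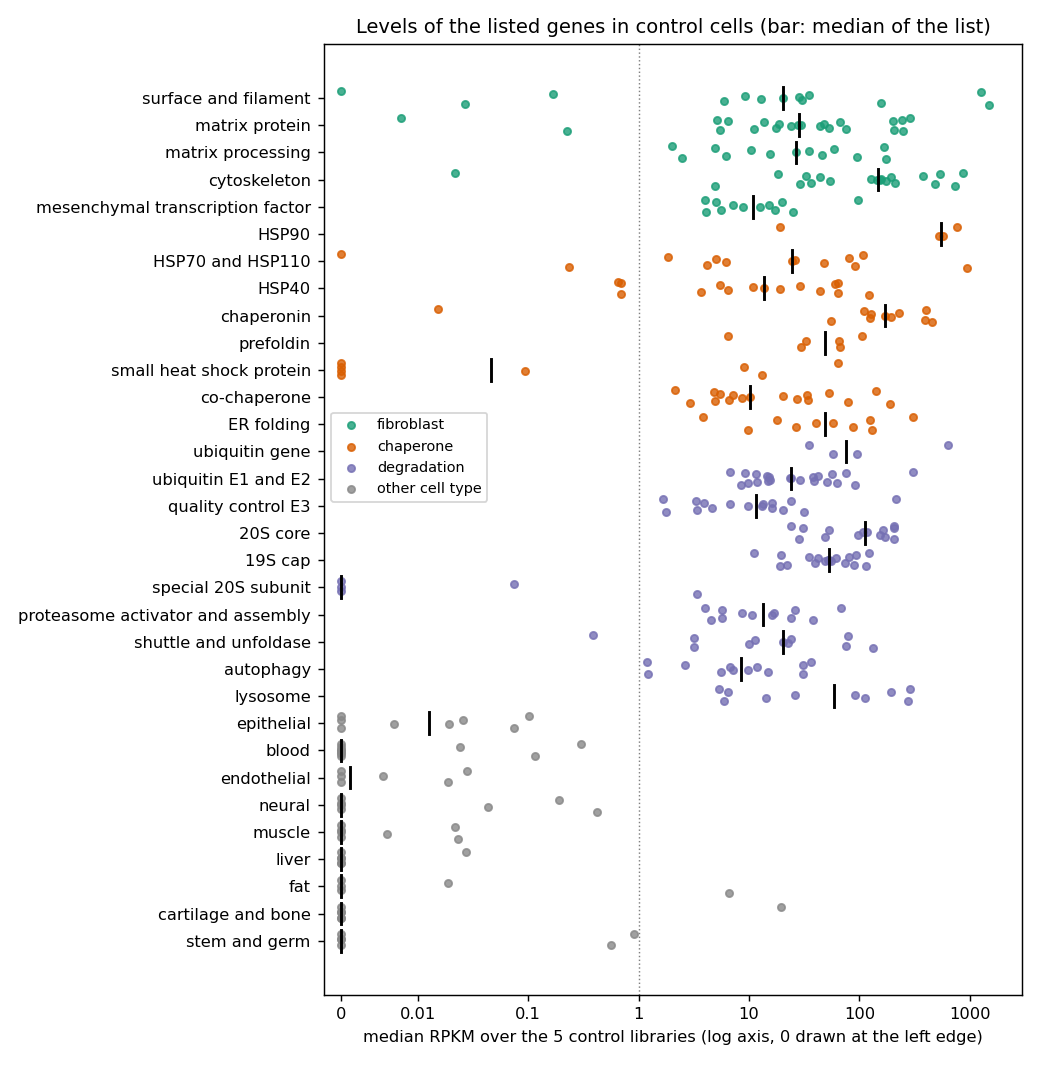
Median RPKM over the 5 control libraries (horizontal axis, log scale, with 0 drawn at the left edge) of each listed gene, by list, with a bar at the list median. HSP90 genes have the highest list median at 546 RPKM, 20S core genes stand at 112 RPKM, and the grey markers of other cell types stay below the dotted line at 1 RPKM except Fabp4 and Sox9.

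The chromosome 4 region known to be lost from NIH3T3 cells gave a check of the line itself. Cdkn2a (chr4:88920377-88928096), which encodes the cell cycle inhibitors p16Ink4a and p19Arf, had 1 count in control 5 and 0 in the other 4. Its neighbour Cdkn2b, which encodes p15Ink4b, had 3 counts in control 1 and 0 elsewhere. Mtap, the methionine salvage gene beside them (chr4:88783274-88826994), had 180, 123, 163, 192 and 187 RPKM. Mtap was thus well expressed in every control while both inhibitor genes were at or near 0.

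Chaperone genes were expressed before any stress, at levels that differed between lists. List medians ran from 0.0464 RPKM (small heat shock proteins) to 546 RPKM (HSP90), with 13.7 RPKM for HSP40 and 10.2 RPKM for co-chaperones. Of 84 genes in 8 lists, 71 were at 1 RPKM or more in every control, and the median of all 84 was 28.3 RPKM, which is 2.99 times that of the expressed genes. The constitutive HSP70, Hspa8, led the class with 896, 1440, 332, 936 and 1440 RPKM. Hsp90ab1, the constitutive cytosolic HSP90, had 766, 950, 412, 766 and 732 RPKM, and its inducible partner Hsp90aa1 had 523, 381, 367, 568 and 588 RPKM. Their ratio, inducible over constitutive, was 0.704 ± 0.186 (SD, n = 5) and lay below 1 in every control. The ratio ran from 0.401 in control 2 to 0.892 in control 3, and the part of GC content in it was not tested. Hsp90b1, the HSP90 of the endoplasmic reticulum (ER), was as abundant, at 569, 380, 365, 631 and 690 RPKM. The mitochondrial chaperonin pair Hspd1 and Hspe1 had medians of 397 and 401 RPKM, and 8 cytosolic chaperonin subunits ranged from 55.0 RPKM for Cct7 to 453 RPKM for Cct4, while the variant subunit Cct6b had a median of 0.0153 RPKM.

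Some chaperones known to be stress-inducible had much lower levels. Hspa1b, the inducible HSP70, had 5.07, 1.73, 4.79, 5.31 and 5.95 RPKM. Its twin Hspa1a was at 0.0120, 0.0675, 0, 0 and 0 RPKM. The promoters and transcripts of these genes are nearly the same, so reads may have been credited to one copy. Dnajb1, the HSP40 that works with inducible HSP70, had a median of 3.70 RPKM, and Bag3, which links HSP70 to autophagy, had 7.14 RPKM. Of 8 small heat shock proteins 3 were expressed, namely Cryab with 63.7, 67.2, 31.5, 63.4 and 47.6 RPKM, Hspb8 with a median of 13 RPKM and Hspb6 with 9.06 RPKM. Hspb1, which encodes HSP27, was listed with 5 counts in control 1 and 0 in the other 4.

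Regulators of stress responses were present at uneven levels. Hsf1, the heat shock factor, had 2.52, 9.99, 0.425, 2.71 and 4.50 RPKM. Atf4, the effector of the integrated stress response, had 107, 126, 61.9, 110 and 152 RPKM and was the highest of 13 regulators, of which 9 were at 1 RPKM or more in every control. Nfe2l1, a factor known to induce proteasome genes, had 12.1, 23.2, 3.14, 10 and 15.8 RPKM. Trp53, which encodes p53, had 9.14, 30.0, 2.88, 8.16 and 10.2 RPKM. Hsf1, Nfe2l1 and Trp53 were each highest in control 2 and lowest in control 3, which is the order of the GC trend. Fkbp1a, the mouse gene for FKBP12, had 40.4, 140, 14.3, 37.3 and 52.6 RPKM with the same order, and whether transcripts of the DD, which descends from the human gene, added to its reads was not tested.

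The degradation machinery was nearly complete, with 112 of 124 genes in 10 lists at 1 RPKM or more in every control and a median of 23.8 RPKM, 2.51 times that of the expressed genes. All 14 subunits of the 20S core and all 18 of the 19S cap were expressed in every control, at list medians of 112 and 52.9 RPKM. Of the variant subunits of the immunoproteasome, Psmb9 had no count, Psmb8 had a value only in control 4, and Psmb10 was expressed in every control at a median of 3.37 RPKM. The thymus subunit Psmb11 and the testis subunit Psma8 had medians of 0.0738 and 0 RPKM. Pomp, which helps assemble the core, had a median of 67.5 RPKM.

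Subunits that enter the core in equal numbers were unequal as mRNA. Psma5 had 212, 77.2, 208, 216 and 188 RPKM, whereas Psmb5, the subunit with the chymotrypsin-like site, had 20.6, 40.4, 5.07, 23.9 and 28.0 RPKM. The median of the 7 alpha subunits exceeded that of the 7 beta subunits in all 5 controls, by 3.33, 1.25, 7.49, 4.08 and 3.48 times. The ratio of Psma5 to Psmb5 ran from 1.91 in control 2 to 41.1 in control 3 and was 10.3, 9.0 and 6.72 in controls 1, 4 and 5. Transcript GC content was 40.1% to 51.6% in the alpha genes and 47.7% to 56.6% in the beta genes. The direction held in every library, but its size moved with the GC trend, and the part of GC content in it was not tested. The 8 cytosolic chaperonin subunits behaved likewise, with a highest over lowest ratio of 2.30 in control 2, 15.8 in control 3 and 6.09 to 9.13 in the remaining libraries. These ratios were computed after the values had been seen.

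All 22 genes of the E1 and E2 list, which activate ubiquitin and pass it on, were at 1 RPKM or more in every control, as were 14 of 16 quality control ligases. Rps27a, which encodes ubiquitin fused to a ribosomal protein, had 641, 424, 522, 716 and 636 RPKM. The polyubiquitin gene Ubb had 56.0, 98.6, 30.0, 57.3 and 84.1 RPKM. Rps27a was the higher in every control. Ube2d3, a ubiquitin-conjugating enzyme of broad use, was the highest of 22 E1 and E2 genes at 309, 162, 156, 318 and 369 RPKM. Nedd4, a ligase of membrane proteins, was the highest of 16 quality control ligases at 216, 191, 151, 229 and 297 RPKM, while Syvn1, the ER ligase HRD1, was the lowest with a median of 1.65 RPKM. Vcp, the unfoldase p97, had 78.5, 141, 27.7, 74.1 and 94.3 RPKM.

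Lysosomal genes had a list median of 58.7 RPKM. Cd63, a lysosomal membrane protein, had 290, 475, 109, 280 and 352 RPKM, and Ctsl, the protease cathepsin L, had 278, 196, 235, 288 and 342 RPKM. Hexa, a hexosaminidase subunit, was the lowest of 10 lysosomal genes with a median of 5.31 RPKM. Autophagy genes had a list median of 8.50 RPKM, below that of the expressed genes. Map1lc3b, which encodes the membrane mark LC3B, had 36.2, 33.6, 29.0, 38.8 and 43.6 RPKM and varied little. The cargo receptor Sqstm1, or p62, varied more, with 30.8, 98.4, 13.3, 28.2 and 56.7 RPKM.

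Families used in other tissues held many silent genes. Of 1112 olfactory receptor genes, 611 (54.9%) had 0 counts in all 5 controls and none reached 1 RPKM in every control. Vomeronasal receptors (124 of 249), taste receptors (20 of 37), defensins (27 of 56), cytochrome P450 genes (31 of 100) and keratins (29 of 103) also held many genes without a count. By contrast 5 of 306 genes named Zfp and 0 of 83 ribosomal protein genes had no count, against 12.8% of the whole table. Silence in the controls did not always extend to the later libraries: 606 of the 2593 genes (23.4%) had no count in the 10 later libraries either, 228 had at least 10 counts in some later library, and 2 reached 1 RPKM in a later library. Control 2 alone supplied the only count of 1086 genes, compared with 224 to 396 genes for each of the other controls, and 3679 genes had no count once it was left out.

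Promoter sequences of expressed and silent genes differed in their CpG dinucleotides (C followed by G), the sites of DNA methylation in mammals. Windows of 300 bases (250 before to 50 after the RefSeq start, GRCm38.p6) were matched by symbol for 13596 of 20207 genes (67.3%), so the shares describe the matched genes only. The median number of CpG per window was 3 in genes with no count, 8 in genes with a median below 1 RPKM, 22 from 1 to 10 RPKM, and 23 both from 10 to 100 RPKM and at 100 RPKM or more. At least 10 CpG were present in 18.2%, 45.3%, 87.6%, 91.6% and 91.9% of these classes, against 61.7% of all matched genes of the table and 43.9% of all 27025 windows of the reference. The string TATAAA, searched on both strands, was found in 26.1%, 15.5%, 5.95%, 6.44% and 11% of the classes, in 12.7% of all matched genes and in 14.2% of all windows. The step in CpG lay at the border of 1 RPKM, with hardly any change above it. These windows are shown by their letters only, and neither methylation nor factor binding was measured here.

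**Figure D4:**
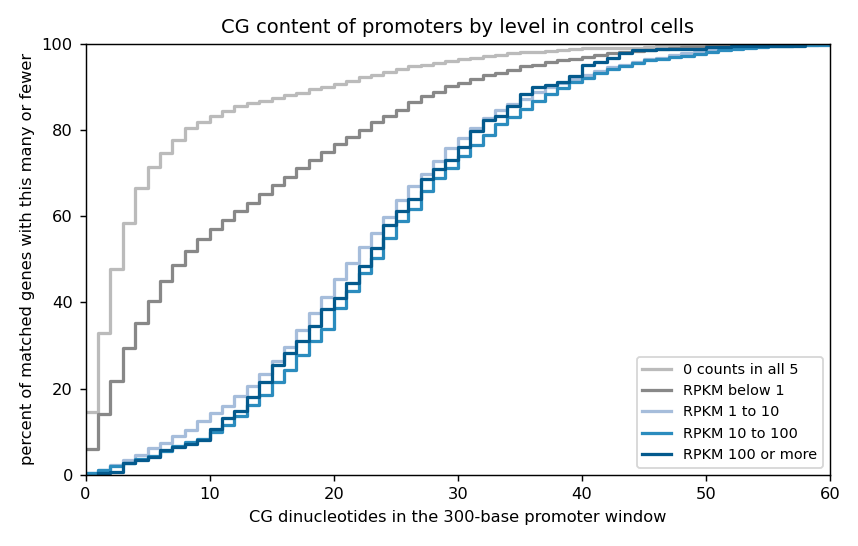
Cumulative percent of matched genes (vertical axis) with a given number of CpG dinucleotides or fewer in the 300-base promoter window (horizontal axis), by level in the controls. The 3 curves of genes at 1 RPKM or more nearly coincide with medians of 22 to 23, and those of silent and weakly expressed genes lie to the left with medians of 3 and 8.

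Single promoters show both the pattern and an exception to it. The 100 bases before the start are given 5′ to 3′ on the strand of the gene, from RefSeq on GRCm38.p6, with each CpG in capitals.
Rps12: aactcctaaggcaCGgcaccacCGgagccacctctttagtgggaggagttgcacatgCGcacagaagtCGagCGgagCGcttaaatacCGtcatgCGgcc
Psma5: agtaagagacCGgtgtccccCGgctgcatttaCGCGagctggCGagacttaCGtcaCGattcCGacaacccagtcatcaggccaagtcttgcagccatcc
Hspa1b: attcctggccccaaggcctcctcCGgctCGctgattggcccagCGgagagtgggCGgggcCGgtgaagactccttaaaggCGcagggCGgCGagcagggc
Hspa1a: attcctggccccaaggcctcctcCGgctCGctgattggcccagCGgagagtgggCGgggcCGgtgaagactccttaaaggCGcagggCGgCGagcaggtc
S100a4: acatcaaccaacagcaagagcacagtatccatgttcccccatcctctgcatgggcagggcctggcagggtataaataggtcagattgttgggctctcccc
Cdkn2a: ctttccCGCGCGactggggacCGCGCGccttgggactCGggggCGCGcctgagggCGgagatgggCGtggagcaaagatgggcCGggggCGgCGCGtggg
Adipoq: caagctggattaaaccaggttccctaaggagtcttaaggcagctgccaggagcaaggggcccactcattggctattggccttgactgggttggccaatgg
Rps12 (chr10:23787210-23787309, minus strand) and Psma5 (chr3:108256826-108256925, plus strand) have 29 and 26 CpG in their 300-base windows, where 91.9% of matched genes at 100 RPKM or more have at least 10. Hspa1b (chr17:34959239-34959338, minus strand) and Hspa1a (chr17:34972157-34972256, minus strand) are shown because they are nearly the same, and they have 16 and 15 CpG. S100a4 (chr3:90603670-90603769, plus strand) is an exception at the high end, with 2 CpG in its window, which also holds the TATAAA string, and its median was 1274 RPKM. Cdkn2a (chr4:89294620-89294719, minus strand) has 45 CpG in its window and 1 count in all controls together. It lies in the region that NIH3T3 is known to lack. Many CpG are common at its level, since 45.3% of matched genes with a count but a median below 1 RPKM have at least 10. Adipoq (chr16:23146436-23146535, plus strand) has no CpG in its window and no count.

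The 5 libraries differed by more than counting error in every pair. Over 8656 genes with a mean count of at least 100, the median SD of log2 RPKM (pseudocount 0.1) was 0.60, and it was 0.45 after rescaling to equal sums. Controls 1, 4 and 5 alone gave 0.23 on RPKM and 0.20 after rescaling. Across genes, which are not independent replicates, Pearson's r between pairs of libraries ran from 0.734 (controls 2 and 3) to 0.987 (controls 1 and 4). Between controls 1 and 4, 1.52% of genes differed more than 2-fold, compared with 48.5% between controls 2 and 3. Control 2 and control 3 were the opposite extremes for 51.7% of the genes: 3093 were highest in control 2 and lowest in control 3, and 1381 were the reverse. Chi-square divided by its degrees of freedom, computed on the counts of each pair, lay between 11.3 and 237. No pair was therefore treated as 1 library deposited more than once, which does not show that the cultures were separate.

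Histone mRNAs and other RNAs that carry no or a short poly(A) tail were among the genes that set the extreme libraries apart. The summed RPKM of 63 replication histone genes was 237, 1361, 46.5, 258 and 288 in controls 1 to 5. Of the 56 that had any reads, 49 were highest in control 2 and 52 were lowest in control 3. Hist1h3h, a histone H3 gene, had the widest spread of all, with 1.37, 142, 0, 0.384 and 4.79 RPKM. Rmrp and Rpph1, the RNA parts of the RNA-processing enzymes RNase MRP and RNase P, had 162, 690, 44.9, 144 and 282 RPKM and 44.2, 352, 7.05, 37.5 and 40.9 RPKM. H2afz, a histone variant gene with a normal poly(A) tail, ran the other way in control 2, with 448, 240, 314, 460 and 460 RPKM. Its GC content was 48.4%, against 63.9% for Hist1h3h, so tail and GC content differ together here. H2afx, a histone gene with 62.6% GC, had 5.51, 40.2, 2.96, 4.87 and 8.93 RPKM. Atp5j, which is not a histone gene, also spread widely, with an SD of log2 RPKM of 3.15 (Hist1h3h 3.95). Hist2h2bb was kept out of the sum after its values were seen, and had 1276, 1241, 310, 1546 and 1775 RPKM. With it the sum over 64 genes was 1513, 2602, 356, 1804 and 2063 RPKM, so control 2 stood less far from the others. The study's methods describe RNA purified on oligo(dT) beads and, in addition, cDNA libraries prepared with an Encore Complete kit. The labels name a whole-transcriptome kit. Which control was made in which way is not given in the sources used here. The parts of the poly(A) tail, GC content and library preparation in these differences were not tested.

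**Figure D5:**
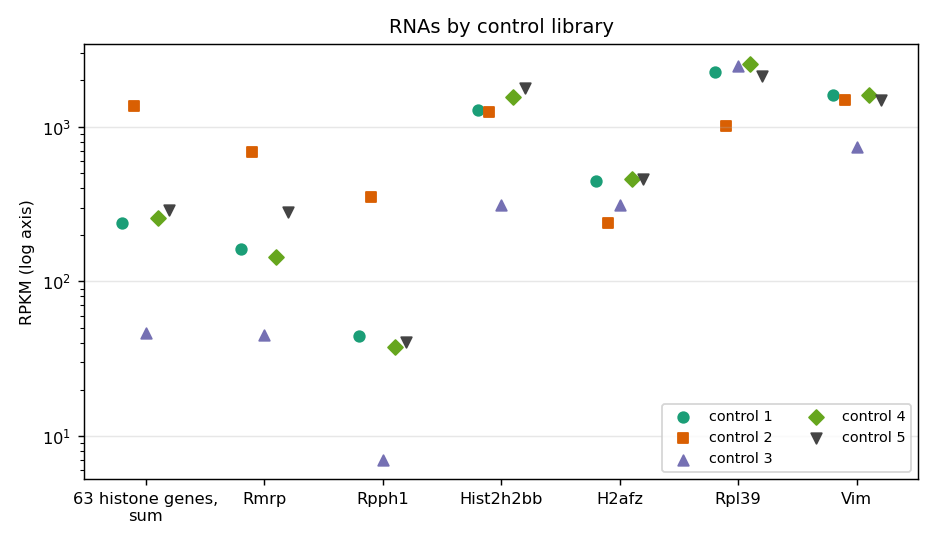
RPKM (vertical axis, log scale) in each control library of the summed histone genes, Rmrp, Rpph1, Hist2h2bb, H2afz, Rpl39 and Vim. Control 2 is far above the rest for the histone sum, Rmrp and Rpph1 and lowest for H2afz and Rpl39, and control 3 is lowest for the first 4 items and for Vim.

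Single genes also separated control 2. The largest gaps above the mean of the other 4 controls, on the log2 scale, were those of the histone genes Hist1h3h (7.53) and Hist1h3i (6.69) and of Eno1 (6.42), and Ftl1, the ferritin light chain, stood at 32.6, 457, 7.63, 27.7 and 84.2 RPKM. The largest gaps below were those of Gm15450 (-3.93), Btnl1 (-3.63) and Akr1b3 (-3.40). Rpl22l1, a ribosomal protein paralog with a GC content of 42.9%, had 120, 25.8, 292, 146 and 109 RPKM. At the other end, the steadiest genes were 9030625A04Rik, with an SD of log2 RPKM of 0.03, Imp3, a nucleolar protein, with 0.04 at 17.0 ± 0.450 RPKM (SD, n = 5), and Anxa11, Itga8 and Nfya with 0.04 to 0.07. These 5 genes were steady only on the deposited scale, and after rescaling their SD was 0.30 to 0.36.

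The later libraries show how far the listed genes moved from this resting state. Counts of all 15 libraries were fitted together with edgeR (quasi-likelihood test, Benjamini-Hochberg adjustment, threshold 0.05), with 10276 genes tested. At 45 min no gene was called, with 365 genes at an unadjusted p under 0.05 and a lowest adjusted p of 0.585 in edgeR, and 6 genes called by DESeq2. At 135 min 1.46% of tested genes were called, and at 405 min 23.4%. All 3 times were compared with the same 5 controls. In 1 alternative the library set was a covariate. It separates the libraries with a positive or flat GC trend from the others. This split was computed from these data and is not a recorded batch.

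All fibroblast genes called in this fit were lower than in the controls, and most were not called. At 135 min 6 of 76 tested were lower and 0 higher (background 0.895% lower, 0.564% higher), and at 405 min 29 were lower and 0 higher (background 13.4% lower, 9.99% higher). Of the mesenchymal transcription factors, 4 of 12 were lower at 135 min and 8 of 12 at 405 min. In bulk RNA, fewer cells of a type and less RNA per cell cannot be told apart. Ctgf, a secreted growth regulator of the matrix, had 184, 262, 159, 151 and 126 normalised CPM in the controls and 47.9, 45.0 and 37.2 CPM at 135 min. The groups did not overlap, and the log2 fold change was -2.02 (SE 0.24, edgeR adjusted p = 0.00036). Snai2 had 34.2 to 165 CPM in the controls and 16.7 to 20.2 CPM at 135 min, a change of -2.31 (SE 0.40, edgeR adjusted p = 0.00815), and Snai1 changed by -1.16 (SE 0.27, edgeR adjusted p = 0.0489), a call that held in 9 of 22 alternatives. At 405 min Thbs1, the matrix protein thrombospondin, had fallen from 379 to 958 CPM to 153 to 260 CPM, a change of -1.62 (SE 0.22, edgeR adjusted p = 0.000336). Snai2 was still lower at 405 min by -1.98 (SE 0.35), and Fap changed by -2.44 (SE 0.59) from at most 3.14 CPM. With the library set as a covariate the Fap call was lost (edgeR adjusted p = 0.0535). That of Snai2 was kept, at -1.46 (edgeR adjusted p = 0.00449). The absence of higher calls at 405 min did not hold in every setting. Without control 2, 19 fibroblast genes were called higher and 32 lower, without replicate 3 of 405 min 5 were higher and 30 lower, and DESeq2 called 3 higher and 33 lower. Leaving out any other control gave 0 or 1 higher and 27 or 28 lower.

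More chaperone genes were called higher than lower, and most were not called. Of 75 tested, 5 were higher and 1 lower at 135 min, and 23 were higher and 4 lower at 405 min, beside the same backgrounds. Hsph1, the HSP110 that recharges HSP70, had 223 to 407 CPM in the controls and 776, 820 and 873 CPM at 135 min, a change of 1.29 (SE 0.16, edgeR adjusted p = 0.000399). Hspa1b rose from 9.02 to 54.7 CPM in the controls to 104, 127 and 135 CPM, a change of 1.96 (SE 0.44, edgeR adjusted p = 0.039), and had 9.81 to 29.3 CPM at 405 min, where it was not called. Dnajb1 changed by 1.14 (SE 0.25) and Dnaja3, a mitochondrial HSP40, by -0.79 (SE 0.17) at 135 min. Of 22 alternatives, 11 kept the call of Hspa1b at 135 min, 8 that of Dnajb1 and 11 that of Dnaja3. At 405 min Bag3 had 97.0 to 173 CPM against 37.8 to 60.3 CPM in the controls, a change of 1.5 (SE 0.18, edgeR adjusted p = 0.000161), and Dnajb2 and Ahsa1, an HSP90 activator, changed by 1.88 (SE 0.37) and 1.52 (SE 0.39). With the library set as a covariate, the changes of Bag3, Dnajb2 and Ahsa1 were smaller, at 1.22, 1.42 and 1.11. Each was still called (edgeR adjusted p = 3.42e-05, 0.00463 and 0.0397). Among the called members, the largest falls were those of Cct4, Pfdn1 and Fkbp5, with -1.07 (SE 0.36), -1.44 (SE 0.49) and -0.73 (SE 0.17). The calls of Cct4 and Pfdn1 were lost when the library set was a covariate (edgeR adjusted p = 0.204 and 0.137).

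More degradation genes were called higher than lower, and most were not called. Of 121 tested, 3 were higher and 0 lower at 135 min, and 42 were higher and 9 lower at 405 min, again beside the backgrounds above. The 19S cap had 11 of 18 members higher and 0 lower, and the 20S core had 6 of 14 higher and 0 lower, whereas the E1 and E2 list had 1 of 22 higher and 4 lower. Mdm2, the ligase of p53, had 171, 112, 226, 157 and 150 CPM in the controls and 933, 1001 and 1064 CPM at 135 min, a change of 2.62 (SE 0.19, edgeR adjusted p = 6.19e-06). Psme4, a proteasome activator, changed by 0.65 (SE 0.15, edgeR adjusted p = 0.0478), a call that held in 5 of 22 alternatives. Sqstm1 had 108 to 365 CPM in the controls and 1829, 1298, 615 and 1269 CPM at 405 min, a change of 2.75 (SE 0.40, edgeR adjusted p = 0.000467). Gabarapl1 and Ulk1, of the autophagy machinery, changed by 2.32 (SE 0.42) and 2.06 (SE 0.35). With the library set as a covariate, the changes of Sqstm1, Gabarapl1 and Ulk1 were smaller, at 2.08, 1.62 and 1.45. Each was still called. Uchl5, a deubiquitinase of the proteasome, and Ube2b, a conjugating enzyme, fell by 1.49 (SE 0.51) and 1.18 (SE 0.40), and both calls were lost when the library set was a covariate (edgeR adjusted p = 0.217 and 0.356).

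These counts rest on an uneven set of libraries. Control 2 and 3 of the 4 libraries at 405 min shared the positive or flat GC trend, as did 1 library at 45 min and none at 135 min, so part of the 405 min contrast cannot be told apart from that trend. The remaining libraries are called those with the usual trend. Among them the median log2 fold change at 405 min was -0.51 for fibroblast, 0.26 for chaperone and 0.37 for degradation genes. Over all tested genes it was -0.02. They still held control 3, the extreme on the other side. Its slope was -1.25 on the log2 scale per 10 percentage points of GC, against -0.28 to -0.78 in the others. This setting is thus not free of the GC trend. It also left 1 library at 405 min, which is assumed to vary like the other groups.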

How the data were processed

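mRNA-seq libraries of NIH3T3 cells carrying DD-sfGFP were grouped by their labels. The deposited estimated counts per RefSeq gene (mm9) and the deposited RPKM values were made by the authors with DNAnexus tools. Which aligner they used is not given in the sources used here. The deposited counts hold fractions for part of the genes and were rounded to whole numbers, although whole counts had been assumed when the tests were planned. The authors' Z-scores and rescaled RPKM were not used. The members and lists were chosen with earlier results of these data known.

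Levels are RPKM as deposited. Log2 values used a pseudocount of 0.1, and spread was taken over genes with a mean count of at least 100. A gene was called expressed at 1 RPKM or more in all 5 controls and silent at 0 counts in all 5. The rule for named genes took the 20 highest by mean RPKM, the 3 highest and the lowest of each list and all members of lists of up to 5, the 10 genes with the largest and 5 with the smallest spread, the 10 farthest from the other controls in control 2 in each direction, the other cell type markers above 1 RPKM in every control, and per class, time and direction up to 3 called members with the largest change. Genes named outside this rule were chosen after their values were seen. Some genes that the rule takes are not reported here. Of 367 listed genes, 366 were in the table.

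Later times were compared with the controls in edgeR (TMM scaling, quasi-likelihood test, all 15 samples, at least 1 count in every sample, Benjamini-Hochberg threshold 0.05). SE is the log2 fold change divided by the square root of F. The fit was tested on simulated data. DESeq2 and other settings were run as alternatives. Counting intervals and limits cover counting error only, and the controls held between 6652539 and 18746456 counts each. Python 3.11.15, pandas 2.3.3 and numpy 2.4.6 were used.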

Additional observations from a re-analysis of the deposited data

Results flagged for a closer look

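In 8 of 73 measures examined over the 5 controls, 1 library lay farther from the others than Dixon's 95% critical value allows, and chance does so in about 1 of 20 groups. The measures are not independent, because most share the lower scale of control 3. Some genes among them were chosen after their values were seen. The 8 of 73 therefore cannot be compared with that share. All 8 were control 2 or control 3.

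Control 3 was low in summed RPKM (159763, others 261684 to 301654), in Vim (739 RPKM, others 1495 to 1600) and in the median of the proteasome activator and assembly list (6.80 RPKM, others 12.8 to 14.9). These values are on the deposited scale, on which control 3 was lower in sum but not for every gene. For Vim the SD of the log2 values was 0.48 on that scale and 0.17 after rescaling to equal sums. Control 2 was high in the sum of 63 histone genes (1361 RPKM, others 46.5 to 288) and in Rpph1 (352 RPKM, others 7.05 to 44.2). It was low in Rpl39 (1015 RPKM, others 2126 to 2553), Prrx1 (61 RPKM, others 97.0 to 105) and Hspa1b (1.73 RPKM, others 4.79 to 5.95). The histone value rests on leaving out Hist2h2bb: over all 64 histone genes control 2 had 2602 RPKM and the others 356 to 2063. The causes were not tested.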

How the results depend on the processing

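Of 87 alternative values, leaving out samples aside, 47 stayed close to the reported value and 40 moved, and no named gene's change turned direction. Causes were not tested. Settings that used the GC trend or controls 1, 4 and 5 alone were chosen after seeing the data. The usual trend setting kept control 3 and had 1 library at 405 min.

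Silent genes numbered 4074 when 1 count per control was allowed and 4062 in controls 1, 4 and 5, where the median SD was 0.23. At 45 min DESeq2 called 6 genes and the library set covariate 4. At 135 min all genes called were 430 with DESeq2, 80 with no filter, 40 with only the compared groups, 815 with the library set, 577 with the usual GC trend only and 252 with controls 1, 4 and 5. Fibroblast calls were then 2 (no filter), 1 (compared groups), 13 (library set) and 12 (usual trend). Chaperone calls were 2, 1 and 11 under the first 3 of these settings. Degradation calls were 8 with DESeq2, 23 with the library set, 19 with the usual trend and 6 with controls 1, 4 and 5. At 405 min all genes called were 812 (compared groups), 1340 (library set), 215 (usual trend) and 5045 (controls 1, 4 and 5). Fibroblast calls were 19 (compared groups), 6 (usual trend) and 45 (controls 1, 4 and 5), chaperone calls 17 (no filter), 11 (compared groups) and 6 (usual trend), and degradation calls 33 (compared groups) and 23 (usual trend).

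Same-numbered samples did not deviate together (mean r -0.11 over 19 pairs, against 0.03 over 64 other pairs). Deviations also followed the library set (mean r 0.16 within a set and -0.17 between sets). The comparison therefore cannot decide whether the numbers pair the samples. The replicate block gave 31 genes at 135 min (fibroblast 1, chaperone 1) and 800 at 405 min (chaperone 12, degradation 32).

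Leaving out 1 sample gave 6826 to 8199 expressed and 2817 to 3679 silent genes, a median SD of 0.37 to 0.67 and a share of 15% to 16% for the 20 highest genes. The ratio to the median of expressed genes was 2.97 to 3.15 for fibroblast, 3.01 to 3.16 for chaperone and 2.30 to 2.46 for degradation lists. No gene was called at 45 min (0 to 0). At 135 min calls ran from 43 to 297 (fibroblast 1 to 8, chaperone 1 to 7, degradation 2 to 9). At 405 min they ran from 959 without replicate 4 of 405 min to 4980 without control 2 (fibroblast 21 to 51, chaperone 13 to 42, degradation 34 to 77).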
